A study of Mus musculus with 112 samples.

Results

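Paneth cells were set against intestinal stem cells (ISCs), both from small intestinal crypts of young mice, by 3′ RNA sequencing of sorted populations. The comparison takes every young Paneth sample and every young ISC sample, 23 of the 67 animal-level samples in the series. Of these, 12 were Paneth samples (6 males and 6 females), each the sum of the technical libraries of 1 animal, and 11 were ISC libraries (5 males and 6 females), with 7 animals giving both. All mice were of the C57BL/6 background and carried the Lgr5-eGFP-IRES-CreERT2 allele, which places green fluorescent protein (GFP) under the stem cell gene Lgr5, and the proximal part of the small intestine was used. They were 2 months old, except for 1 male and 1 female of 3 months among the Paneth samples. Paneth cells were sorted as CD24 high, side-scatter high, GFP negative and Epcam high, and ISCs as GFP high, Epcam high and CD24 low. This allele is known to be expressed in patches of the epithelium, and stem cells of other crypts lack GFP.

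Paneth cells sit at the crypt base between the stem cells, live for weeks, and store lysozyme, alpha-defensins and other antimicrobial proteins in large secretory granules. They also feed the stem cells with Wnt, EGF and Notch ligands and are known to supply them with lactate. ISCs divide daily and give rise to every lineage of the epithelium, Paneth cells included. Both populations are sorted mixtures in which fewer cells of a type and less RNA per cell cannot be told apart.

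Paneth samples held 2823489 to 10816206 counts (median 7073502) and ISC samples 2792519 to 5586711 (median 3839849). Transcripts of the mitochondrial genome, the genes whose symbols start with mt-, took 51.4, 61.3 and 73.4% of the Paneth counts and 3.996, 5.98 and 9.69% of the ISC counts (lowest, median and highest sample, the order used for every set of 3 values per group). The means were 61.6 ± 6.74% and 6.27 ± 1.93% (SD, n = 12 and 11, two-sided permutation test p = 2e-05, the smallest the permutations can give), so the lowest Paneth sample lay far above the highest ISC sample. Nuclear genes were left with 1093726 to 4740429 counts in Paneth samples and 2521971 to 5088250 in ISCs. This share shifts the scaling, as do other highly counted genes. Granule products and alpha-defensins took a median of 24.8% of Paneth nuclear counts, against 0.170% in ISCs. The separate parts of these in the values that follow were not tested. On unscaled library totals the median gene changed by -1.87 on the log2 scale in Paneth cells and 322 genes were called higher against 10249 lower. After TMM scaling, which sets the typical gene equal, the median was -0.025. Fold changes below are therefore relative to the typical gene, and a positive one smaller than 1.87 lies below 0 once that shift is added. A change given as 1 signed number is a log2 fold change. Levels are TMM-normalised CPM, counts scaled to a common library size.

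**Figure D1:**
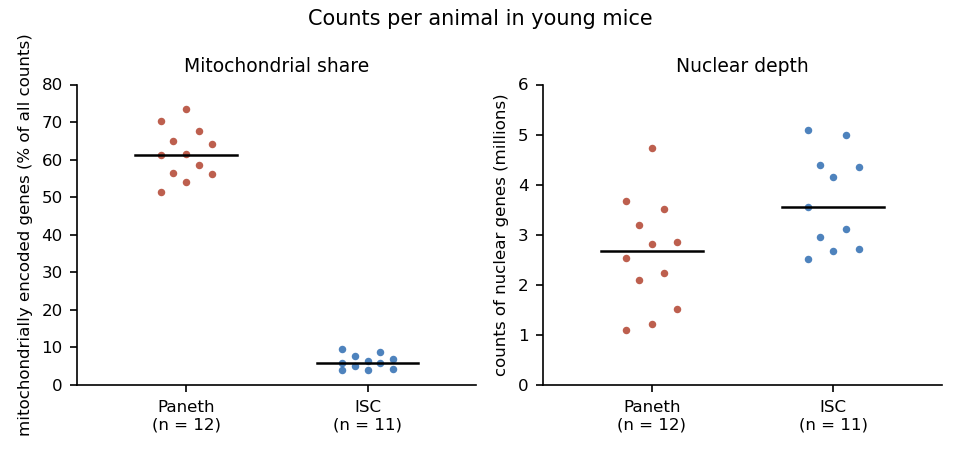
Each point is 1 animal (Paneth cells left, ISCs right) and the black line is the median. The left panel gives the percentage of all counts from mitochondrially encoded genes, which lay between 51.4 and 73.4% in Paneth cells and between 4.00 and 9.69% in ISCs, and the right panel gives the counts of nuclear genes, where the groups overlapped.

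Of 11868 genes tested, 1693 were higher (14.3%) and 1198 lower (10.1%) in Paneth cells, 24.4% in all (edgeR quasi-likelihood F test, Benjamini-Hochberg adjusted p below 0.05, the call used throughout). The counts of called genes per list below are to be read against these shares, and a count near them does not set a list apart. With the animal as a block, in the 7 animals that gave both cell types, 1051 were higher and 779 lower. Every Paneth sample lay above every ISC sample for 321 of the tested genes (2.7%) and below for 62 (0.522%). The genes used to sort the cells follow their gates and are a check only. Cd24a had 337, 576 and 838 CPM in Paneth cells, against 125.9, 152 and 181 CPM in ISCs, and Lgr5 had 9.92, 32.5 and 66.7 CPM in Paneth cells, against 61.0, 94.0 and 105 CPM in ISCs. Epcam, high in both gates, had 215, 276 and 400.1 CPM in Paneth cells, against 249, 313.9 and 419 CPM in ISCs. Cd24a was higher in all 12 Paneth samples than in any ISC sample, whereas Lgr5 and Epcam ranges overlapped and 10 of the 12 Paneth samples were under the ISC range for Lgr5. Lgr5 was counted in every Paneth sample.

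Products of the Paneth granule and alpha-defensins had the highest medians of all gene lists. Of 16 genes, all tested, 15 were higher and 1 was lower (median log2 fold change 7.74, against -0.025 over all genes), and 13 had every Paneth sample above every ISC sample. Together with the alpha-defensins they took 18.3, 24.8 and 40.8% of nuclear counts in Paneth cells, against 0.107, 0.170 and 0.291% in ISCs. Lyz1 (ENSMUSG00000069515, chromosome 10, 117287797 to 117292868, GRCm38), the lysozyme that cleaves bacterial cell walls, had 27232, 47050.1 and 75272 CPM in Paneth cells, against 53.1, 119 and 337.8 CPM in ISCs (log2 fold change 8.57 ± 0.39, edgeR adjusted p = 8.12e-13; the value after ± is the SE of a fold change). Mmp7 (ENSMUSG00000018623, chromosome 9, 7692090 to 7699585), the matrilysin that cuts mouse pro-defensins to their active form, had 1989, 2692 and 6058 CPM in Paneth cells, against 5.94, 14.6 and 27.03 CPM in ISCs (log2 fold change 7.61 ± 0.35, edgeR adjusted p = 7.10e-13). Both genes named as Paneth markers for this comparison were thus high in the cells labelled as Paneth cells, with no overlap of the groups.

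Among the other granule genes, the lectin gene Itln1 had 19719.5, 27869.6 and 53265 CPM in Paneth cells, against 34.5, 53.0 and 192 CPM in ISCs (log2 fold change 8.79 ± 0.40, edgeR adjusted p = 9.29e-13). Ang4, which encodes an antimicrobial ribonuclease, had 2800.5, 3940.3 and 9558 CPM in Paneth cells, against 1.86, 9.67 and 30.6 CPM in ISCs (log2 fold change 8.63 ± 0.50, edgeR adjusted p = 4.54e-11). The mucosal pentraxin gene Mptx2 had 2269, 3306 and 8320.0 CPM in Paneth cells, against 1.001, 5.63 and 14.8 CPM in ISCs (log2 fold change 9.29 ± 0.53, edgeR adjusted p = 3.26e-11). All 3 separated the groups completely. The lipase gene Pnliprp2 and the colipase gene Clps, better known from the pancreas, changed by 7.87 and 8.53 (edgeR adjusted p at most 5.47e-10), with medians of 1690.4 and 3.07 CPM in Paneth cells and ISCs for Clps. Reg4, Habp2, Nupr1 and AY761184, also on this list, changed by 8.13, 7.35, 6.78 and 8.92 (edgeR adjusted p at most 4.43e-09). A place on the list does not show that a product, such as that of Nupr1, is stored in the granule.

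The Reg3 lectins, which bind bacterial surfaces and are also made by enterocytes, were less far apart. Reg3g had 717, 1551 and 2541 CPM in Paneth cells, against 42.0, 135 and 370.3 CPM in ISCs (log2 fold change 3.08 ± 0.33, edgeR adjusted p = 3.78e-07), with no overlap. Reg3b had 283, 855 and 2044 CPM in Paneth cells, against 57.2, 134 and 399.9 CPM in ISCs (log2 fold change 2.30 ± 0.35, edgeR adjusted p = 4.90e-05), and 11 of 12 Paneth samples exceeded every ISC sample. Reg3a changed by 4.36 (edgeR adjusted p = 2.37e-09), with medians of 18.2 and 1.10 CPM in Paneth cells and ISCs. Slc30a2, the zinc transporter that loads Paneth granules in mice, had 14.8, 33.6 and 64.5 CPM in Paneth cells, against 7.94, 14.6 and 23.3 CPM in ISCs (log2 fold change 1.33 ± 0.24, edgeR adjusted p = 4.50e-05), a change smaller than the unscaled shift. Fgfbp1, which encodes a carrier of fibroblast growth factors, was the listed gene that fell, with 7.58, 21.0 and 59.9 CPM in Paneth cells, against 30.4, 46.8 and 69.6 CPM in ISCs (log2 fold change -1.04 ± 0.25, edgeR adjusted p = 0.00197). Of the 12 Paneth samples, 10 were under the ISC range for Fgfbp1.

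**Figure D2:**
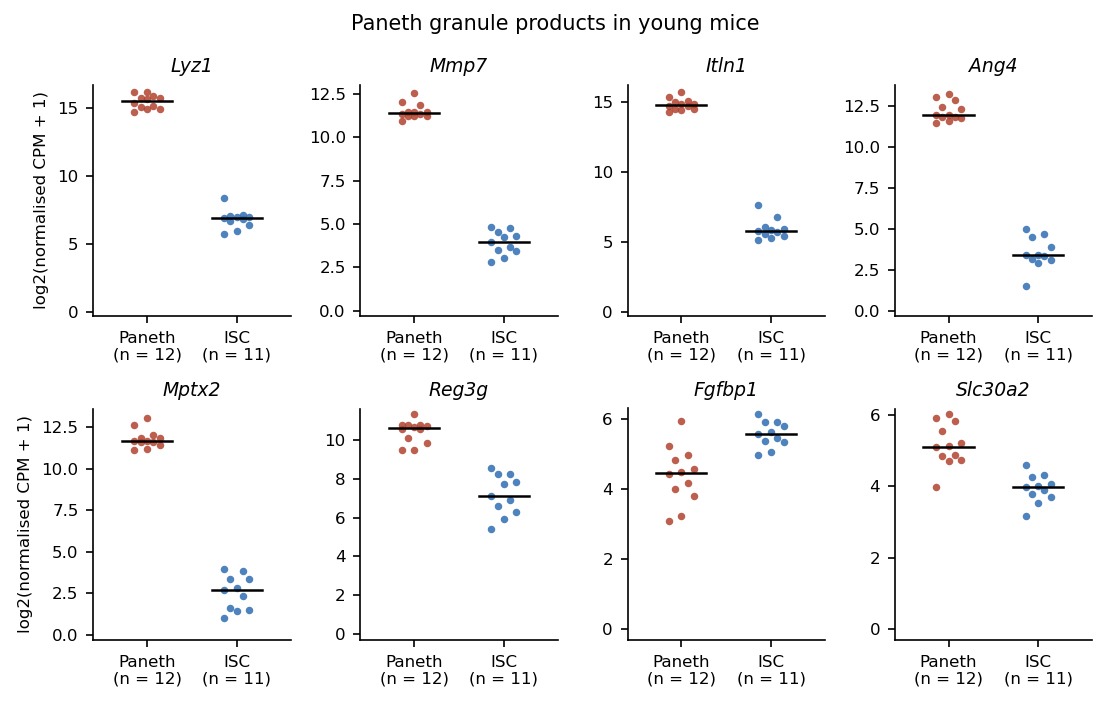
Each point is 1 animal (Paneth cells left, n = 12; ISCs right, n = 11), the black line is the median, and the vertical axis is log2 of normalised CPM plus 1. Lyz1, Mmp7, Itln1, Ang4, Mptx2 and Reg3g leave a gap between the groups, Slc30a2 is higher in Paneth cells with slight overlap, and Fgfbp1 is lower.

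Alpha-defensins are short cationic peptides that disrupt microbial membranes, and in the mouse their genes form a cluster of near-identical copies on chromosome 8, so reads are assigned to single members with uncertainty. Of 22 Defa genes listed, 13 passed the filter on low counts and all of these were higher (log2 fold changes 7.70 to 9.19), and each had every Paneth sample above every ISC sample. The filter kept them through the Paneth samples, so that count is no support by itself. Summed over the list, they had 36529.7, 57943 and 138550.0 CPM in Paneth cells, against 53.8, 119.7 and 514 CPM in ISCs, a gap of more than 1 order of magnitude between the lowest Paneth and the highest ISC sample. Defa24 had 22909.5, 35401 and 85805 CPM in Paneth cells, against 34.5, 83.1 and 317 CPM in ISCs. Defa30 had 9949, 14572 and 37390.5 CPM in Paneth cells, against 9.57, 25.00 and 147 CPM in ISCs. Both followed the sum in leaving no overlap. Defa26 had medians of 466 and 0.767 CPM in Paneth cells and ISCs, and Defa3 had medians of 119 and 0.381 CPM in Paneth cells and ISCs. Defa35 held 917 counts over the Paneth samples and 3 over the ISCs, a ratio of 586 (exact 95% counting interval 199.9 to 2847, counting error only). Defa27 held 767 and 1 (ratio 1471, interval 263 to 58163). The other 9 listed members were not tested, and 4 of them, Defa2, Defa20, Defa32 and Defa33, had no count in any sample of either group.

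Promoter windows of 5 genes that separate the groups are shown because Wnt signalling is known to drive Paneth genes in the mouse through TCF factors, whose binding sites contain the letters CTTTGA or CTTTGT. Each line gives the 250 bases before the RefSeq start (GRCm38.p6), 5′ to 3′ on the strand of the gene, and capitals mark either motif on either strand (TCAAAG and ACAAAG are the reverse).

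Lyz1 chr10:117292869-117293118 (-): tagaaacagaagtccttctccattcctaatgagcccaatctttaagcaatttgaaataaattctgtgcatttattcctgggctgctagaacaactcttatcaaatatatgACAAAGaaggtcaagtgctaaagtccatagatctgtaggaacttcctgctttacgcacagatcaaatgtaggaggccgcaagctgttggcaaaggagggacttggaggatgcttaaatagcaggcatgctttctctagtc

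Ang4 chr14:51773591-51773840 (-): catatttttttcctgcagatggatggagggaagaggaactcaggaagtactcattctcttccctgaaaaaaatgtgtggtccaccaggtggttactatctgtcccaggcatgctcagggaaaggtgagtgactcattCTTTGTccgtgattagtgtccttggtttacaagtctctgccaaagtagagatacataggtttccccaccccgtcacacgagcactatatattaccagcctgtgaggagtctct

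Itln1 chr1:171535295-171535544 (-): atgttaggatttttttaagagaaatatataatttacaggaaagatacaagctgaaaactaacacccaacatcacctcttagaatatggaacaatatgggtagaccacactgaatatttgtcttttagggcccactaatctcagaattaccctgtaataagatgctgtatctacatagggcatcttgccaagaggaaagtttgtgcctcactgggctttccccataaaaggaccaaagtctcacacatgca

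Defa21 chr8:21025295-21025544 (+): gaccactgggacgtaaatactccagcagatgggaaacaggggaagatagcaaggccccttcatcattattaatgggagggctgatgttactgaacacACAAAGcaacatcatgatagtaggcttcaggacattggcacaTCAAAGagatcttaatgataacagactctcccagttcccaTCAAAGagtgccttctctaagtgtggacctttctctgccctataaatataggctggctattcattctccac

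Defa35 chr8:21064788-21065037 (+): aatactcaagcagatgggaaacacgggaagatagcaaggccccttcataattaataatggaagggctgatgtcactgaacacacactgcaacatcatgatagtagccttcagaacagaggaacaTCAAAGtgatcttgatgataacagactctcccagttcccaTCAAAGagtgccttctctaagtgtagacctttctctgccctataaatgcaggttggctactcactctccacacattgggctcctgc

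Defa21 held 3 matches and Defa35 held 2, all in the reverse orientation, the Defa21 ones beginning 71 to 153 bases before the start and the nearer one of Defa35 86 bases. Lyz1 held 1 match at 140 bases in the reverse orientation and Ang4 1 at 113 bases as written, and the Itln1 window held none. A match was present in 12 of 12 Defa genes found in the RefSeq table and in 10 of 14 granule genes, against 30.8% of 27025 genes (27.6% of 32851 windows). A gene with more than 1 window counted if any of them matched. Mmp7 matched only in a window wholly inside the annotated gene, and its window before the annotated start held no match. The windows of Slc30a2 and Reg3b lay inside the annotated gene for 250 and 228 of their 250 bases. The 12 Defa genes coincide only in part with the 13 called ones, sharing Defa21, Defa22, Defa28, Defa30 and Defa35. The 12 also include Defa2, Defa20 and Defa32, without a count in either group. Defa23, Defa31, Defa36 and Defa37 are also among them and were too sparse to test, while Defa24, Defa26 and Defa3 are absent. The Defa windows are copies of related sequence and not independent. These are letter matches and were not tested as binding sites.

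Of 17 niche signals listed, 11 passed the filter. Of these, 2 were higher and 1 was lower (median log2 fold change 0.34), against 14.3% and 10.1% of all genes tested. With the animal as a block 2 were higher and 2 lower of 12. Wnt3 (ENSMUSG00000000125, chromosome 11, 103774150 to 103817957), the Wnt ligand that Paneth cells supply to stem cells in the mouse, had 23.9, 70.9 and 97.9 CPM in Paneth cells, against 0.167, 1.98 and 10.1 CPM in ISCs (log2 fold change 4.45 ± 0.36, edgeR adjusted p = 2.86e-12). Egf, the ligand of the EGF receptor, had 0, 14.1 and 34.9 CPM in Paneth cells, against 0, 0.992 and 5.87 CPM in ISCs (log2 fold change 3.19 ± 0.65, edgeR adjusted p = 0.000315). Wnt3 separated the groups completely, and Egf exceeded the ISC range in 9 of 12 Paneth samples and was at 0 in 1. Wls, the carrier that brings Wnt proteins to the cell surface, was the one that fell, with 7.58, 28.5 and 43.5 CPM in Paneth cells, against 23.1, 47.2 and 73.8 CPM in ISCs (log2 fold change -0.90 ± 0.25, edgeR adjusted p = 0.00678). Its ranges overlapped, with 5 of 12 Paneth samples under the ISC range.

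The Notch ligands were not called. Dll1 had 14.00, 26.1 and 75.6 CPM in Paneth cells, against 16.5, 25.2 and 74.4 CPM in ISCs (log2 fold change -0.10 ± 0.24, edgeR adjusted p = 0.811). Dll4 had 2.02, 5.57 and 32.0 CPM in Paneth cells, against 1.38, 4.88 and 16.6 CPM in ISCs (log2 fold change 0.39 ± 0.44, edgeR adjusted p = 0.563). The ranges overlapped for both. Jag1 had medians of 0.471 and 1.54 CPM in Paneth cells and ISCs and Jag2 had medians of 2.55 and 1.47 CPM in Paneth cells and ISCs, and neither passed (edgeR adjusted p = 0.383 and 0.207). The EGF receptor ligands Tgfa, Areg and Btc and the Wnt acyltransferase gene Porcn did not pass either (log2 fold changes -0.045, 1.53, -1.81 and 0.34, smallest edgeR adjusted p = 0.106), although Btc was lower with the animal as a block (log2 fold change -5.08, adjusted p = 0.0163). Notum, the Wnt deacylase known from aged Paneth cells in mice, held 35 counts over the young Paneth samples and 1 over the ISCs (ratio 67.1, exact 95% counting interval 11.3 to 2725) and was too sparse to test. Bst1, Ereg, Wnt6 and Wnt9b were also too sparse, with Paneth maxima of 5.52, 5.34, 1.48 and 1.34 CPM, and Wnt11 had no count.

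On the receiving side, 5 of 21 tested receptors and co-receptors (23 listed) were lower in Paneth cells and 1 was higher (median -0.43). Fzd7, a Wnt receptor that mouse stem cells depend on, had 0, 5.24 and 20.2 CPM in Paneth cells, against 8.91, 20.2 and 33.0 CPM in ISCs (log2 fold change -1.49 ± 0.44, edgeR adjusted p = 0.0112). Lrig1, which restrains ErbB receptors, had 20.3, 29.5 and 81.3 CPM in Paneth cells, against 43.0, 75.3 and 117 CPM in ISCs (log2 fold change -0.97 ± 0.20, edgeR adjusted p = 0.000384). Bmpr1a, a receptor for bone morphogenetic proteins, had 4.17, 17.2 and 25.6 CPM in Paneth cells, against 22.4, 31.4 and 39.1 CPM in ISCs (log2 fold change -0.95 ± 0.25, edgeR adjusted p = 0.00487). All 3 ranges overlapped, with 8, 9 and 8 of 12 Paneth samples under the ISC range. Erbb3 fell by 0.57 (edgeR adjusted p = 0.0186) and did not pass with the animal as a block (log2 fold change -0.61, adjusted p = 0.0829). Lgr5, whose reporter defined the gates, is the fifth, and without it 4 of 20 were lower (median -0.33). With the first technical library of each Paneth animal in place of the sum, Fzd7, Bmpr1a and Wls did not pass (edgeR adjusted p = 0.0999, 0.518 and 0.291), and in males alone Lrig1 did not pass either (edgeR adjusted p = 0.114).

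Kit, the receptor for stem cell factor, was the one receptor that rose, with 7.000, 27.9 and 69.7 CPM in Paneth cells, against 1.17, 4.05 and 8.49 CPM in ISCs (log2 fold change 2.90 ± 0.34, edgeR adjusted p = 1.20e-08). It exceeded every ISC sample in 11 of 12 Paneth samples. Lgr4, which like Lgr5 binds R-spondins, had 20.8, 43.9 and 134 CPM in Paneth cells, against 25.8, 37.0 and 48.6 CPM in ISCs and was not called (log2 fold change 0.30 ± 0.23, edgeR adjusted p = 0.369). Fzd5, Lrp5, Lrp6 and Ryk of the Wnt receptor complex did not pass (log2 fold changes 0.13, 0.59, -0.029 and -0.063, smallest edgeR adjusted p = 0.595). Rnf43, which removes Frizzled receptors, Egfr and Notch1 did not pass (log2 fold changes -0.74, -0.91 and -0.64, edgeR adjusted p = 0.0766, 0.0548 and 0.0651), but each passed when 1 of certain samples was left out: Rnf43 without ISC male 4, Paneth male 1 or Paneth female 1 (adjusted p = 0.00392 to 0.0463), Egfr without Paneth male 3, Paneth male 5 or Paneth female 5 (adjusted p = 0.0114 to 0.0419) and Notch1 without Paneth male 1 or Paneth female 2 (adjusted p = 0.0356 to 0.0431). They also passed in whole fits of another kind: Egfr with DESeq2, limma-voom, the title number as a block and young progenitors added to the fit (adjusted p = 0.00950 to 0.0386), Rnf43 with limma-voom, the title number as a block and progenitors added (adjusted p = 0.000216 to 0.0285) and Notch1 with limma-voom and with progenitors added (adjusted p = 0.0166 to 0.0413). Ephb2, which positions Paneth cells and progenitors along the crypt, had 20.4, 34.8 and 80.2 CPM in Paneth cells, against 48.7, 54.5 and 62.5 CPM in ISCs (log2 fold change -0.43 ± 0.19, edgeR adjusted p = 0.0943), and passed without Paneth male 4 (adjusted p = 0.0296) and with limma-voom (adjusted p = 0.00970).

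**Figure D3:**
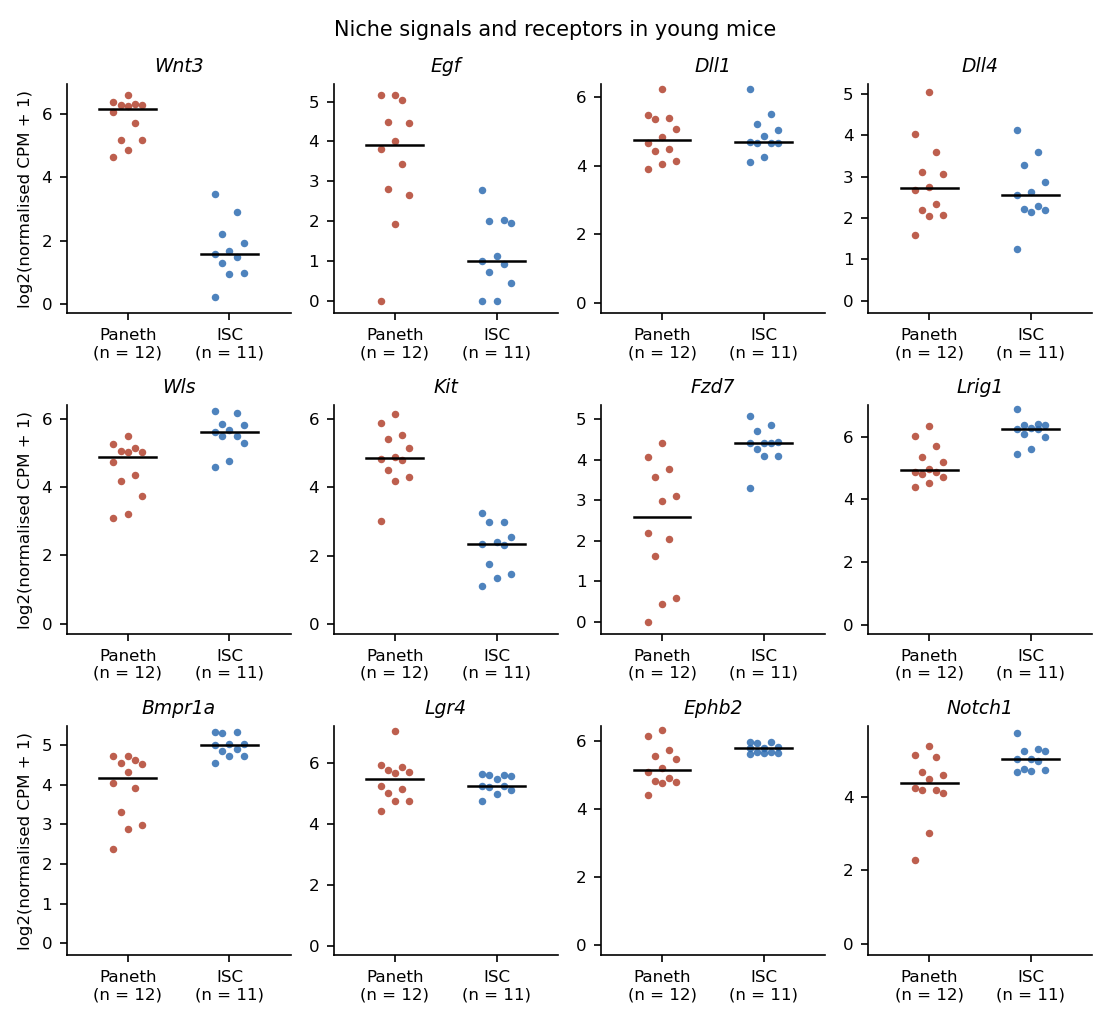
Each point is 1 animal (Paneth cells left, n = 12; ISCs right, n = 11), the black line is the median, and the vertical axis is log2 of normalised CPM plus 1. Wnt3, Egf and Kit are higher in Paneth cells, Wls, Fzd7, Lrig1 and Bmpr1a lower, and Dll1, Dll4 and Lgr4 cover similar ranges, while Ephb2 and Notch1 did not pass the test.

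Downstream, 7 of 16 tested Wnt targets were lower and 1 was higher (median -0.81), or 4 and 0 of 17 with the animal as a block. Lgr5 is one of them, and without it 6 of 15 were lower (median -0.74). Ascl2, a transcription factor of stem cell identity, had 14.00, 43.8 and 91.6 CPM in Paneth cells, against 94.4, 124.1 and 174 CPM in ISCs (log2 fold change -1.296 ± 0.22, edgeR adjusted p = 3.48e-05) and every Paneth sample lay under every ISC sample. Myc had 13.5, 37.2 and 88.5 CPM in Paneth cells, against 61.6, 78.9 and 151 CPM in ISCs (log2 fold change -1.06 ± 0.22, edgeR adjusted p = 0.000384). Axin2, the feedback inhibitor commonly used as a Wnt reporter, fell by 1.01 (edgeR adjusted p = 0.000593) and did not pass with the animal as a block (log2 fold change -0.49, adjusted p = 0.164). The Wnt antagonist gene Nkd1 rose (log2 fold change 2.14 ± 0.51, edgeR adjusted p = 0.00151), also not with the animal as a block (log2 fold change 1.70, adjusted p = 0.0805). Sox9, Ephb2 and Ephb3, also Wnt targets, did not pass (log2 fold changes -0.035, -0.43 and -0.24). Among 12 tested Notch pathway genes 1 was called, Atoh1, the factor that Notch signalling represses, against 24.4% of all genes tested. Hes1, the classical target, had a log2 fold change of -0.63 and was not called.

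Of 14 transcription factors of the secretory lineages, 8 were higher and 0 lower (median 1.301). Bhlha15 (ENSMUSG00000052271, chromosome 5, 144190286 to 144194441), also called Mist1, which enlarges the secretory apparatus of serous cells, had 52.5, 90.1 and 202 CPM in Paneth cells, against 0, 1.65 and 4.25 CPM in ISCs (log2 fold change 5.86 ± 0.36, edgeR adjusted p = 2.12e-14). Spdef, which matures goblet and Paneth cells in mice, had 23.1, 39.9 and 75.4 CPM in Paneth cells, against 0.658, 4.57 and 8.01 CPM in ISCs (log2 fold change 3.44 ± 0.35, edgeR adjusted p = 5.47e-10). Atoh1, which commits cells to the secretory lineages, had 13.96, 29.2 and 54.2 CPM in Paneth cells, against 0.743, 6.34 and 11.4 CPM in ISCs (log2 fold change 2.35 ± 0.33, edgeR adjusted p = 5.29e-07). These 3 separated the groups completely, as did Xbp1, the transcription factor of the unfolded protein response (log2 fold change 1.07 ± 0.13, edgeR adjusted p = 5.37e-08), and Creb3l1 (log2 fold change 2.66 ± 0.32, edgeR adjusted p = 3.42e-08). Gfi1, which acts after Atoh1, was sparse, with 0, 8.23 and 30.7 CPM in Paneth cells, against 0, 0.226 and 1.12 CPM in ISCs (log2 fold change 4.59 ± 0.73, edgeR adjusted p = 6.59e-06). Creb3l4 and Klf4 rose by 2.44 and 1.54 (edgeR adjusted p at most 1.41e-05).

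Sox9, which mice need to form Paneth cells, was not called, with 18.3, 41.7 and 91.5 CPM in Paneth cells, against 33.8, 41.0 and 75.6 CPM in ISCs (log2 fold change -0.035 ± 0.19, edgeR adjusted p = 0.919). Foxa1, Foxa2, Foxa3, Nr5a2 and Tcf4 did not pass (log2 fold changes 0.33, -0.53, 0.80, 0.15 and 0.14). Goblet, tuft and enteroendocrine cells express several factors of this list, and their markers were higher in the Paneth samples too, with summed levels of 3678, 5374 and 7488 CPM in Paneth cells, against 361, 578 and 1482 CPM in ISCs for goblet markers. The part of those cells in these values was not tested. Factors of intestinal identity shared by all lineages had 4 lower and 1 higher of 15 (median -0.034; 2 and 1 with the animal as a block). Vdr, the vitamin D receptor, had 191, 256 and 370.0 CPM in Paneth cells, against 473, 492 and 555 CPM in ISCs (log2 fold change -0.98 ± 0.10, edgeR adjusted p = 3.05e-10) and did not overlap, and Gata6 changed by -0.74 (edgeR adjusted p = 0.00161).

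Most stem cell markers fell. Of 25 genes, 20 were lower and 0 higher (median -1.13), and 7 had every Paneth sample under every ISC sample. Summed, they had 1820.0, 2812 and 4947 CPM in Paneth cells, against 6514, 8738 and 11182 CPM in ISCs, with no overlap. Lgr5, which the sort used, is one of these, and without it 19 of 24 were lower (median -1.12). Olfm4 (ENSMUSG00000022026, chromosome 14, 79984081 to 80023139), a secreted glycoprotein of crypt base columnar cells, had 1084, 1765 and 3288 CPM in Paneth cells, against 4537, 6369 and 8374 CPM in ISCs (log2 fold change -1.78 ± 0.14, edgeR adjusted p = 7.27e-13). Gkn3 had medians of 33.8 and 114 CPM in Paneth cells and ISCs, and Cdca7 had medians of 117 and 311 CPM in Paneth cells and ISCs (log2 fold changes -1.77 and -1.33, edgeR adjusted p at most 6.77e-09), and Smoc2 changed by -1.10 (edgeR adjusted p = 7.95e-09). Stem cell transcripts were still counted in every Paneth sample. Their source was not tested.

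Genes of the machinery that makes and exports secreted proteins rose in many cases and fell in none of the 3 lists. Of 32 tested genes for entry into the endoplasmic reticulum 16 were higher and 0 lower (median 0.47). Sec61a1 and Sec61b, subunits of the translocation channel, changed by 1.28 and 1.09 (edgeR adjusted p at most 3.71e-07), with 159.9, 208 and 249 CPM in Paneth cells, against 61.1, 83.1 and 106 CPM in ISCs for Sec61a1 and no overlap. Tram1, which assists the channel, and Dad1, a subunit of the glycosyltransferase beside it, changed by 1.76 and 0.72 (edgeR adjusted p at most 3.56e-06). None of the 16 exceeded the unscaled shift.

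In the folding and unfolded protein response list 23 of 33 genes were higher and 0 lower (median 1.05), with 5 above the unscaled shift. P4hb, the protein disulfide isomerase, had 991, 1223 and 1516 CPM in Paneth cells, against 307, 395 and 468 CPM in ISCs (log2 fold change 1.67 ± 0.10, edgeR adjusted p = 2.99e-16). Ern2, the stress sensor IRE1 beta of mucosal epithelia, had 30.5, 60.3 and 125 CPM in Paneth cells, against 0.226, 2.17 and 7.17 CPM in ISCs (log2 fold change 5.04 ± 0.45, edgeR adjusted p = 1.60e-09). Both separated the groups completely, as did the co-chaperone gene Dnajc3 and Edem1, which marks misfolded proteins for removal (log2 fold changes 2.09 and 2.31, edgeR adjusted p at most 7.25e-10). For vesicle transport and exocytosis 20 of 39 were higher and 0 lower (median 0.61; 14 and 1 with the animal as a block). Rab3d, a GTPase of secretory granules, had 55.2, 91.0 and 156 CPM in Paneth cells, against 15.9, 18.6 and 30.2 CPM in ISCs (log2 fold change 2.22 ± 0.17, edgeR adjusted p = 7.27e-13). The receptor genes Kdelr3, Surf4 and Tmed3, which retrieve or carry cargo between endoplasmic reticulum and Golgi, changed by 4.998, 1.36 and 1.58 (edgeR adjusted p at most 5.59e-10).

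Autophagy, which Paneth cells need to keep their granules in mice, was represented by 17 tested genes, of which 9 were higher and 0 lower (median 0.64). Sqstm1, the cargo adaptor p62, had 58.6, 96.6 and 134 CPM in Paneth cells, against 23.9, 44.9 and 67.3 CPM in ISCs (log2 fold change 1.19 ± 0.17, edgeR adjusted p = 8.10e-07), above the ISC range in 11 of 12 samples. Lamp2, a membrane protein of lysosomes, and Atg7, an enzyme of autophagosome formation, changed by 1.22 and 1.28 (edgeR adjusted p at most 3.71e-05). No member exceeded the unscaled shift.

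Paneth cells are known as the glycolytic partner of the stem cells. Of 23 tested genes of glycolysis and lactate, 5 were higher and 2 lower (median 0.22; 6 and 1 of 25 with the animal as a block), so most were not called. Aldoa, the aldolase, had 199.8, 251 and 370.4 CPM in Paneth cells, against 62.0, 113 and 157 CPM in ISCs (log2 fold change 1.16 ± 0.13, edgeR adjusted p = 6.45e-09) and Pfkp, a phosphofructokinase, 34.9, 64.4 and 97.0 CPM in Paneth cells, against 9.59, 17.0 and 32.9 CPM in ISCs (log2 fold change 1.74 ± 0.21, edgeR adjusted p = 3.05e-08), both without overlap. Pkm rose by 0.69 and the sparse hexokinase gene Hk1 by 3.69 (edgeR adjusted p at most 0.000525). Ldha, which makes lactate, had 334, 539 and 666 CPM in Paneth cells, against 352, 421 and 521 CPM in ISCs and did not pass (log2 fold change 0.27 ± 0.10, edgeR adjusted p = 0.0537). It passed in 6 of 23 fits that left out 1 sample (those without ISC male 2, ISC female 1, Paneth male 2, Paneth female 1, Paneth female 2 or Paneth female 3, edgeR adjusted p = 0.0103 to 0.0494). It also passed without the mitochondrial genes, under DESeq2 size factors, with the first technical libraries, with DESeq2, with limma-voom and with young progenitors added to the fit (adjusted p = 0.0148 to 0.0457). Slc16a1, a monocarboxylate transporter, had 7.05, 16.2 and 39.3 CPM in Paneth cells, against 14.2, 32.2 and 42.7 CPM in ISCs (log2 fold change -0.91 ± 0.26, edgeR adjusted p = 0.00902).

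Fatty acid oxidation had 4 lower and 2 higher of 18 (median -0.025; 4 and 1 of 19 with the animal as a block). Etfa and Hadhb, enzymes of beta-oxidation, changed by -0.74 and -0.81, and Etfb, the partner of Etfa, by 0.68 (edgeR adjusted p at most 0.00310). Etfb did not pass with the first technical libraries or in males alone (edgeR adjusted p = 0.192 and 0.0989), nor did Hadhb in males alone (edgeR adjusted p = 0.104).

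The respiratory chain split by the genome that encodes it. All 8 mitochondrially encoded genes tested (13 listed) were higher (4.19 to 6.03, median 5.24), mt-Co1 by 4.19 ± 0.15 (edgeR adjusted p = 1.87e-22). The other listed ones, mt-Co2, mt-Co3, mt-Atp6, mt-Atp8 and mt-Nd4l, were almost uncounted, with no Paneth sample above 3.50 CPM, so the mitochondrial share rests on a part of that genome. Of 80 nuclear-encoded subunits 17 were higher and 12 lower (median 0.13). Ndufb7 of complex I had 175, 235 and 387.2 CPM in Paneth cells, against 95.9, 136 and 182.4 CPM in ISCs (log2 fold change 0.86 ± 0.13, edgeR adjusted p = 1.09e-06) and Sdha of complex II 208, 266 and 410.2 CPM in Paneth cells, against 366, 453 and 570.3 CPM in ISCs (log2 fold change -0.76 ± 0.11, edgeR adjusted p = 1.35e-06). Summed, the nuclear list had 15606, 18748 and 23435 CPM in Paneth cells, against 14304, 18707 and 21693 CPM in ISCs, with overlapping ranges. Uqcrq and Ndufs7 changed by 0.97 and 0.73 and Ndufs1 by -0.58 (edgeR adjusted p at most 0.000519).

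ATF4 targets of the amino acid response had 8 higher and 1 lower of 19 (median 0.33; 5 and 1 of 20 with the animal as a block). Wars and Aars, transfer RNA synthetases, and Asns, asparagine synthetase, changed by 1.31, 0.99 and 0.80 (edgeR adjusted p at most 8.61e-06), and Psph, of serine synthesis, by -1.11 (edgeR adjusted p = 0.000201). Zinc fills Paneth granules, and 6 of 21 tested zinc genes were higher and 0 lower (median 0.30; 3 and 0 of 22 with the animal as a block). Slc39a7, which exports zinc from the endoplasmic reticulum, had 84.1, 127.6 and 163 CPM in Paneth cells, against 43.6, 53.8 and 79.2 CPM in ISCs (log2 fold change 1.14 ± 0.14, edgeR adjusted p = 6.93e-08) without overlap. Cholesterol synthesis had 3 higher and 1 lower of 19 (median 0.36; 1 and 1 of 19 with the animal as a block).

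Ribosomal protein genes took 6.07, 9.42 and 12.9% of nuclear counts in Paneth cells, against 10.9, 14.3 and 15.3% in ISCs. The granule products and alpha-defensins described above share those totals. After TMM scaling 8 of 77 were higher and 9 lower, with a median of 0.037, against 14.3% and 10.1% of all genes tested. Rpl5 and Rps18 changed by -0.53 and -0.60 and Rpsa by 0.63 (edgeR adjusted p at most 0.000367). Ribosomal genes have many processed copies, so their reads are assigned with uncertainty. Of 35 ribosome biogenesis genes 5 were lower and 1 higher (median -0.20; 2 and 1 with the animal as a block). The nucleolar chaperone gene Npm1 was among those that fell, with 301, 458 and 753 CPM in Paneth cells, against 567, 757 and 1039 CPM in ISCs (log2 fold change -0.65 ± 0.13, edgeR adjusted p = 0.000150).

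Genes of the dividing cell were lower. Of 41 mitosis genes 36 were lower and 0 higher (median -1.02), and of 49 DNA replication genes 27 were lower and 1 higher (median -0.64; 17 and 1 with the animal as a block). Aurkb, the kinase that corrects spindle attachment, had 35.1, 56.3 and 92.9 CPM in Paneth cells, against 111.4, 158 and 205 CPM in ISCs (log2 fold change -1.38 ± 0.16, edgeR adjusted p = 5.99e-09). Ube2c, which supplies ubiquitin to the anaphase-promoting complex, had 92.0, 134 and 168 CPM in Paneth cells, against 225, 319 and 411 CPM in ISCs (log2 fold change -1.20 ± 0.12, edgeR adjusted p = 9.04e-10). Mcm6, of the replicative helicase, had 54.8, 94.5 and 145 CPM in Paneth cells, against 160.5, 201 and 239 CPM in ISCs (log2 fold change -1.04 ± 0.13, edgeR adjusted p = 3.23e-08). For all 3 every Paneth sample lay under every ISC sample. Rrm1, Cdt1 and Mcm2 changed by -1.17, -1.19 and -0.81 and Top2a by -1.02 (edgeR adjusted p at most 8.46e-06).

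Mki67 fell less, with 88.1, 120.9 and 174 CPM in Paneth cells, against 126.4, 216.6 and 404 CPM in ISCs (log2 fold change -0.79 ± 0.16, edgeR adjusted p = 0.000336), and 8 of 12 Paneth samples lay under the ISC range. Rfc1, the large subunit of the clamp loader, was the replication gene that rose (log2 fold change 0.74 ± 0.18, edgeR adjusted p = 0.00179). Recombination repair had 7 lower and 0 higher of 19 (median -0.57), with Brca1 at 0.521, 8.81 and 17.2 CPM in Paneth cells, against 17.3, 24.8 and 30.4 CPM in ISCs (log2 fold change -1.55 ± 0.34, edgeR adjusted p = 0.000698). Among 9 cell cycle inhibitors 3 rose and 1 fell (median 0.61; 2 and 0 with the animal as a block). Cdkn1a, which encodes p21, had 10.1, 70.2 and 125.6 CPM in Paneth cells, against 0.106, 3.53 and 7.19 CPM in ISCs (log2 fold change 4.33 ± 0.44, edgeR adjusted p = 2.31e-08) and Cdkn2b, which encodes p15, had 19.2, 45.6 and 94.4 CPM in Paneth cells, against 0, 0.915 and 5.24 CPM in ISCs (log2 fold change 4.78 ± 0.56, edgeR adjusted p = 4.28e-07), both without overlap. Proliferation transcripts were counted in every Paneth sample, and their source was not tested.

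Outside the granule products, genes of microbial sensing had 5 higher and 2 lower of 17 (median 0.19; 3 and 2 of 18 with the animal as a block). The cytokine gene Il18 had 3.13, 16.8 and 58.7 CPM in Paneth cells, against 0.992, 3.73 and 6.59 CPM in ISCs (log2 fold change 2.65 ± 0.40, edgeR adjusted p = 1.93e-06), and Casp1, whose protease activates it, changed by 0.63 (edgeR adjusted p = 0.00335). Nlrp6, an inflammasome sensor, had 146, 184 and 224 CPM in Paneth cells, against 244, 289.5 and 399 CPM in ISCs (log2 fold change -0.69 ± 0.11, edgeR adjusted p = 5.10e-06), with every Paneth sample under every ISC sample. Dissociation stress and immediate early genes, which rise while tissue is taken apart, had 6 higher and 0 lower of 18 (median 0.76; 3 and 0 with the animal as a block), with Klf6 at 1.27 (edgeR adjusted p = 0.000399). Their summed level was 437, 570.1 and 726 CPM in Paneth cells, against 263, 362 and 856 CPM in ISCs, overlapping through ISC male 1, above every Paneth sample, and ISC female 1, above 3 of them, and its part in the other differences was not tested.

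**Figure D4:**
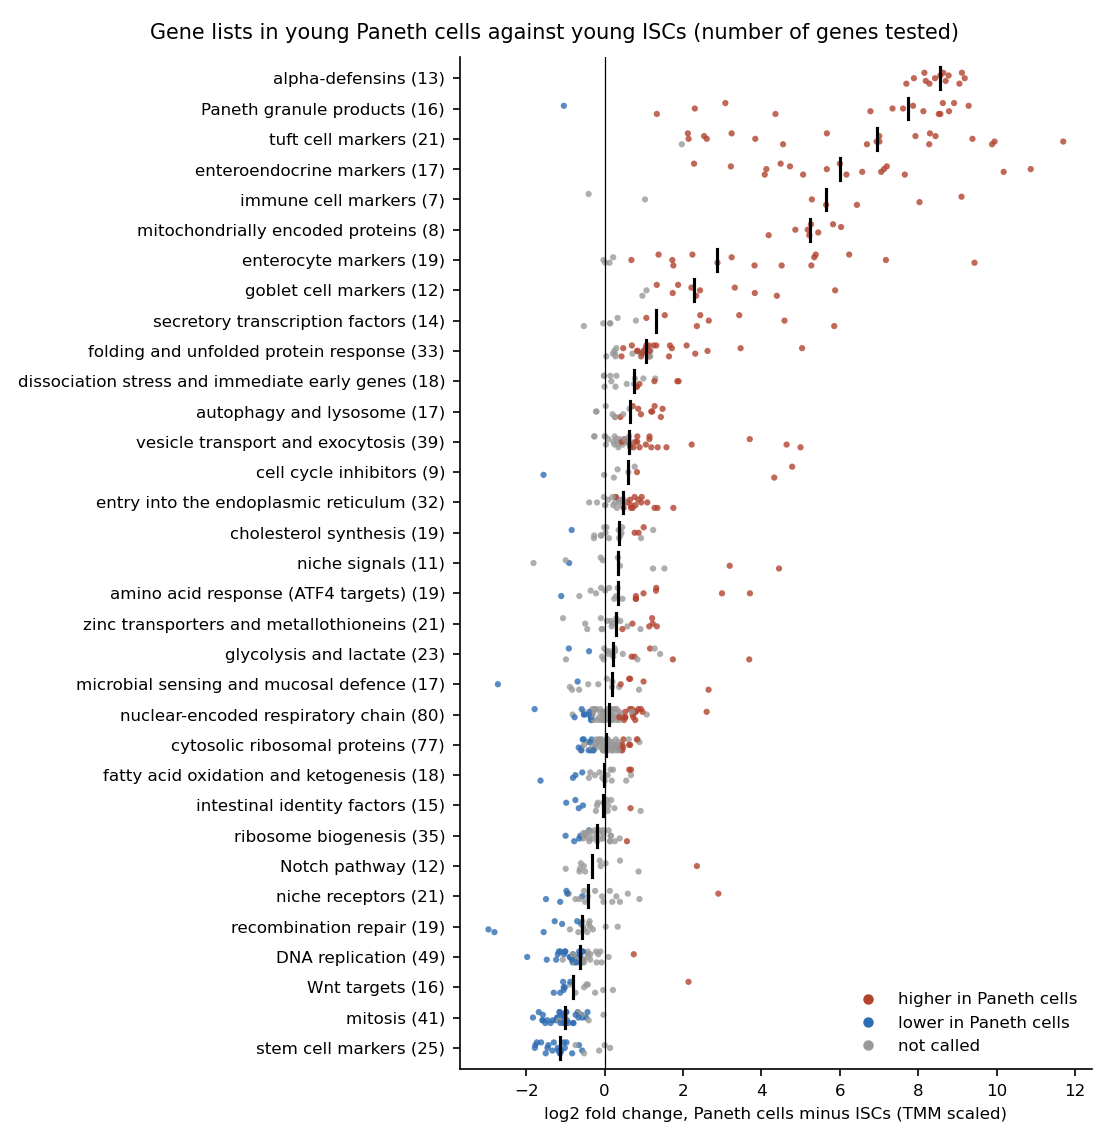
Each row is a gene list with its number of tested genes, each point 1 gene, placed by its TMM-scaled log2 fold change (Paneth cells minus ISCs) and coloured by its call, and the black bar is the list median. Alpha-defensins and granule products lie at the top with medians of 8.57 and 7.74, followed by tuft and enteroendocrine markers, and mitosis genes and stem cell markers lie at the bottom with medians of -1.02 and -1.13.

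Markers of other cell types were higher in the Paneth samples as well, and their part in the results above was not tested. All 17 tested enteroendocrine markers (26 listed) and 20 of 21 tested tuft markers (26 listed) were higher. The filter kept many of them through the Paneth samples alone. Enteroendocrine markers summed to 178, 1222 and 3324 CPM in Paneth cells, against 4.88, 11.1 and 39.2 CPM in ISCs, and tuft markers to 305, 862 and 2520.1 CPM in Paneth cells, against 16.7, 30.2 and 44.4 CPM in ISCs. Of nuclear counts these were at most 0.515 and 0.396% in any Paneth sample. Goblet markers (10 of 12 higher) summed to 3678, 5374 and 7488 CPM in Paneth cells, against 361, 578 and 1482 CPM in ISCs, and enterocyte markers (15 of 19) to 2046, 2801 and 4389 CPM in Paneth cells, against 1079, 1188 and 1436 CPM in ISCs. No sums of these 4 lists overlapped. Immune markers (5 of 7 tested higher, 23 listed, and 8 of 10 with the animal as a block) summed to 17.1, 82.3 and 169 CPM in Paneth cells, against 1.62, 5.84 and 8.81 CPM in ISCs, with the leukocyte gene Ptprc at a Paneth median of 0.188 CPM. Immune markers such as Gzma, without an ISC count, also passed the filter through the Paneth samples alone. The count of immune markers called is thus no support by itself. Of 15 stromal and endothelial markers 8 had no count in any Paneth sample, and 1 of 2 tested was higher, the intermediate filament gene Vim. ISCs were near 0 for most tuft and enteroendocrine genes, with 6 and 4 listed members at 0 in every ISC sample.

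**Figure D5:**
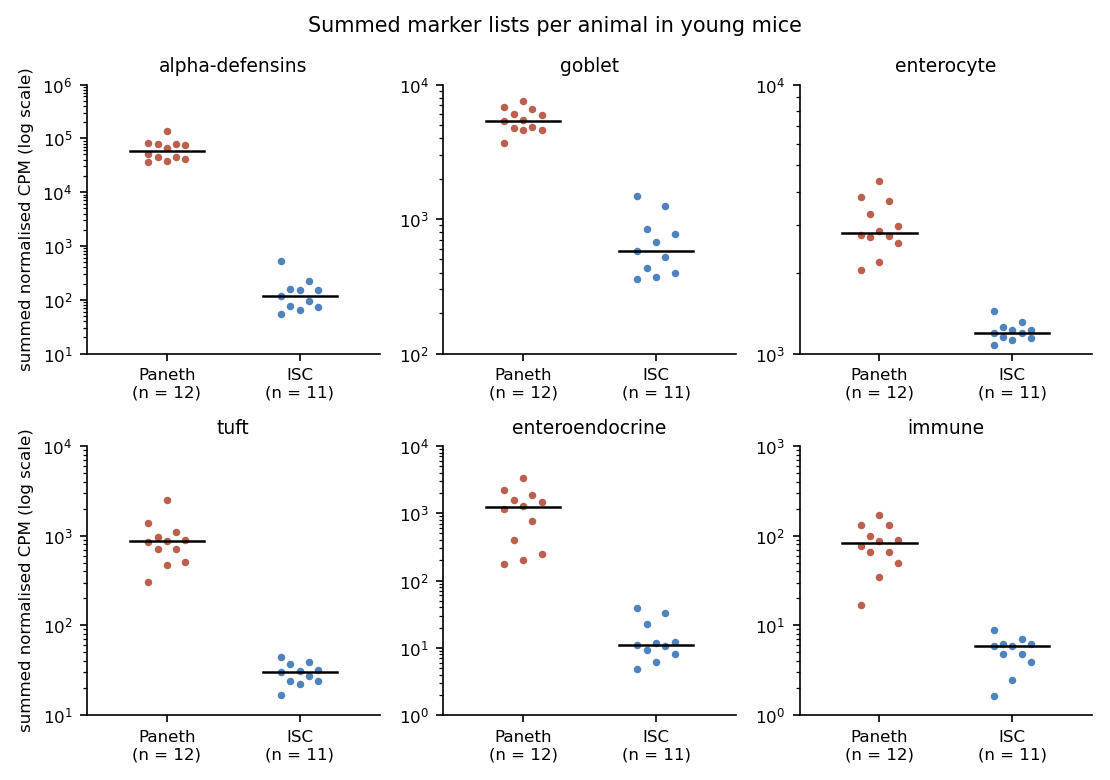
Each point is 1 animal (Paneth cells left, ISCs right), the black line is the median, and the vertical axes are the summed normalised CPM of a marker list on a log scale. All 6 lists plotted are higher in every Paneth sample than in any ISC sample, and the enteroendocrine sum varies most among them, between 178 and 3324 CPM.

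Among single markers, Muc2, the gel-forming mucin of goblet cells, had 473, 822 and 1756 CPM in Paneth cells, against 21.8, 41.9 and 101 CPM in ISCs (log2 fold change 4.39 ± 0.35, edgeR adjusted p = 4.30e-09). Spink4 and Guca2a, secreted goblet products, changed by 5.88 and 3.83 (edgeR adjusted p at most 3.48e-08). Chga, a granin of enteroendocrine cells, had 21.6, 196 and 535 CPM in Paneth cells, against 0, 0.226 and 3.35 CPM in ISCs (log2 fold change 7.66 ± 0.83, edgeR adjusted p = 5.29e-07), and the tuft gene Alox5ap, which serves leukotriene synthesis, had 8.16, 33.0 and 76.5 CPM in Paneth cells, against 0, 0 and 0.552 CPM in ISCs (log2 fold change 8.28 ± 0.58, edgeR adjusted p = 4.01e-14). Apoa1, an apolipoprotein gene of enterocytes, had 296, 415 and 864 CPM in Paneth cells, against 0.771, 2.89 and 10.5 CPM in ISCs (log2 fold change 7.18 ± 0.37, edgeR adjusted p = 1.84e-12). None of Muc2, Chga, Alox5ap and Apoa1 overlapped between the groups. Of the immune markers, the granzyme gene Gzma had no ISC count and was at least 345-fold higher, with 3 counts over the ISC group as the floor, and Igha, of immunoglobulin A, had 0.521, 6.72 and 38.4 CPM in Paneth cells, against 0, 0 and 2.02 CPM in ISCs (log2 fold change 5.29 ± 0.85, edgeR adjusted p = 1.13e-05).

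The 12 largest positive fold changes of named genes at 10 CPM or more belonged mostly to these lists. The hormone gene Sst (somatostatin) had 5.19, 71.7 and 722 CPM in Paneth cells, against 0, 0 and 0.278 CPM in ISCs (log2 fold change 10.87 ± 1.23, edgeR adjusted p = 1.03e-06). Gip, another hormone gene, had 9.001, 63.6 and 973 CPM in Paneth cells, against 0, 0.181 and 1.83 CPM in ISCs (log2 fold change 10.18 ± 1.22, edgeR adjusted p = 2.38e-06). Neither hormone gene overlapped between the groups, and both varied more than 100-fold among Paneth samples. Dclk1, the classical tuft marker, held 1916 counts over the Paneth samples and 2 over the ISCs (ratio 1837, exact 95% counting interval 508 to 15179). Sh2d6 had 73.7, 160.0 and 459 CPM in Paneth cells, against 0, 0 and 1.39 CPM in ISCs (log2 fold change 9.95 ± 0.58, edgeR adjusted p = 1.36e-11), and Lct, the lactase of enterocytes, had 23.1, 51.3 and 94.8 CPM in Paneth cells, against 0, 0 and 0.658 CPM in ISCs (log2 fold change 9.44 ± 0.50, edgeR adjusted p = 2.99e-16). Siglecf, Rac2 and Lamb1 held 1 ISC count each, with Paneth medians of 24.7, 38.2 and 25.7 CPM. Pygl, the liver glycogen phosphorylase, and the cytochrome P450 gene Cyp2b10 had no ISC count and were at least 580.3-fold and 571-fold higher, taking 3 counts over the ISC group as the floor. Afp, which encodes alpha-fetoprotein, had 0.742, 85.1 and 859.9 CPM in Paneth cells, against 0, 0 and 0.620 CPM in ISCs (log2 fold change 11.38 ± 1.67, edgeR adjusted p = 8.70e-05). Its ranges did not overlap.

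The 12 largest negative changes were smaller, from -2.81 to -1.78. Parpbp, a regulator of recombination, had 0, 1.76 and 7.91 CPM in Paneth cells, against 7.05, 16.9 and 24.7 CPM in ISCs (log2 fold change -2.81 ± 0.41, edgeR adjusted p = 1.54e-06). The mitotic genes Mad2l1 and Ckap2 changed by -1.83 and -1.95, the kinesin gene Kif18a by -2.57 and Pole2, of a replicative polymerase, by -1.97 (edgeR adjusted p at most 0.00337). Pde3b, a phosphodiesterase, had 0, 1.501 and 4.59 CPM in Paneth cells, against 5.01, 11.3 and 15.0 CPM in ISCs (log2 fold change -2.48 ± 0.58, edgeR adjusted p = 0.00127). Cyp2e1 and Rassf5 changed by -1.78 and -1.85 (edgeR adjusted p at most 4.40e-05). Every Paneth sample lay under every ISC sample for Pde3b, Mad2l1 and Olfm4.

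Paneth samples varied more among themselves than ISCs, with biological coefficients of variation of 0.697 and 0.409. The 34 technical libraries of the 12 Paneth animals give the spread within an animal, on log2(CPM of nuclear counts + 1). Lyz1 had an SD of 0.0614 between libraries of an animal and 0.373 between animal means, and Olfm4 had 0.129 and 0.487. For the hormone genes Sst and Gip the SD between libraries was 1.07 and 0.812, and between animals 2.61 and 2.21. These 4 differed between animals by more than between libraries of 1 animal. Lgr5, Dclk1 and Wnt3 did not, with 1.27, 1.85 and 0.835 between libraries and 0.994, 1.49 and 0.644 between animals.

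Marker sums varied among the Paneth animals. Enteroendocrine markers were highest in male 5 (3324 CPM) and lowest in male 1 (178 CPM), and tuft markers were highest in female 4 (2520.1 CPM) and lowest in male 2 (305 CPM). Alpha-defensins were highest in female 6 (138550.0 CPM), one of the animals of 3 months, and lowest in female 4 (36529.7 CPM). Goblet markers were also highest in female 6 (7488 CPM), and immune markers, like tuft markers, in female 4 (169 CPM). Stem cell markers were highest in female 1 (4947 CPM), which also had the highest mitosis sum (2667 CPM) and the lowest mitochondrial share (51.4%). Each is 1 animal, and none was tested. Whether the Paneth against ISC difference depended on sex was tested as the difference of the male and female contrasts. No gene was called by edgeR (533 of 11868 at an unadjusted p under 0.05, smallest edgeR adjusted p = 0.353), and DESeq2 called 4 (657 at an unadjusted p under 0.05).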

How the data were processed

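The authors deposited a table of read counts per gene, with 1 column per library. Per the submitters' processing notes, cutadapt 3.0, STAR 2.7.9a, HTSeq 0.13.5 and DESeq2 1.30.1 were used with the mm10 build. No annotation release or strand setting for the counting was found in the labels or headers, so reads of near-identical copies and of overlapping or antisense genes are uncertain. The 34 technical libraries of the Paneth animals (1092760 to 3846724 counts each) were summed per animal, since they are not replicates. Samples were grouped by the labels.

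Genes were filtered (edgeR filterByExpr, minimum count 10), scaled by TMM on all genes and tested with edgeR 4.0.16 (quasi-likelihood F test, robust) in R 4.3.3, over 4 groups of cell type and sex. The contrast is the mean of the male and the female difference, and p-values were adjusted by Benjamini-Hochberg over all 11868 genes tested. The CPM values given are the deposited counts divided by TMM-scaled library sizes and were computed here. DESeq2 1.42.0 and limma 3.58.1 served as alternatives. The mitochondrial share was tested by 100000 permutations of the samples. The main fit was tested on simulated counts, with 50 genes at each true log2 fold change. It recovered 20 at -1, 22 at 1, 46 at -3 and 41 at 3, with 3 false calls. A gene that was not called can thus still differ between the groups. Only 200 of the 11868 genes carried a change in these counts, against 24.4% called in the data. The rate of false calls under the unequal mitochondrial shares and spread of Paneth samples and ISCs was not tested. Gene positions are of GENCODE M21 (GRCm38) and promoter windows of RefSeq (GRCm38.p6).

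Of the named genes, some are the 12 largest positive and 12 largest negative called changes at 10 CPM or more in the higher group. The others are the members of the granule, niche, receptor and secretory factor lists, and of every other list up to 4 called members in its main direction and 2 in the other, by p. Some genes so named are left out, some of them because they are not reported here. Hes1, Ptprc, Vim and single alpha-defensins beyond the rule were chosen after their values were seen. The comparison and the gene lists were chosen with earlier results of these data known.

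The cell types were paired where the same animal gave both (7 animals). Their deviations from the group means correlated by 0.0381 to 0.0839 over genes. The TMM factors ranged from 0.336 to 0.723 in Paneth samples and from 1.86 to 2.11 in ISCs. Alternatives changed the scaling, filter, tool, threshold, block, samples and technical libraries. Floors and counting intervals cover counting error only.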

Additional observations from a re-analysis of the deposited data

How the results depend on the processing

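Against the 1693 higher and 1198 lower genes of the fit reported, unscaled library totals gave 322 higher and 10249 lower, and a test against a fold of 2 gave 497 and 51. The first technical library of each animal alone gave 1000 and 697. The animal as a replicate block gave 1051 and 779, and the same 7 animals without the block, a fit chosen after seeing the data, gave 959 and 574. Males alone gave 726 and 260 and females alone 1032 and 541, with fewer samples in each of these. limma-voom with weights per cell type called 1831 lower. The other settings kept both counts within 1.5 times. Leaving out each sample in turn gave 1564 to 1782 higher and 972 to 1278 lower. The number in the titles as a replicate block gave 1395 and 1450, although same-numbered samples did not deviate together (median correlation 0.0360 over 11 pairs).

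The difference in the mitochondrial share was 55.4 percentage points (n = 12 and 11, permutation p = 2e-05). It was 54.6 within the 7 animals with both cell types (exact sign permutation p = 0.0156, the smallest 7 pairs can give), 57.0 in males and 53.7 in females (exact permutation p = 0.00433 and 0.00216), and 54.3 to 56.3 with each sample left out in turn. For the dependence on sex, DESeq2 called 4 genes, Cep112, Hspa4l, Vps39 and Gm10680, and edgeR 0.

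Calls of 155 of the 214 named genes were followed through the alternatives, and the named calls counted in this paragraph are theirs. With unscaled totals taken relative to their median gene, no named call turned into a call in the other direction under any alternative run. Named genes that were not called could change sign. The median of the 11 tested niche signals was 0.34 in the fit reported and -0.067 with limma-voom. On unscaled totals as they stand, changes smaller than the shift of 1.87 turn round: entry into the endoplasmic reticulum had 0 higher and 30 lower of 32 genes, autophagy 0 and 15 of 17, and zinc genes 0 and 18 of 21. With the animal as a replicate block Erbb3, Axin2 and Nkd1 lost their call and Btc gained one, and no other call among the 155 changed. Genes outside the 155 did change with the block, as the counts given above for cell cycle inhibitors show. The same 7 animals without the block lost 12 named calls, Mki67, Myc, Lrig1, Brca1 and Klf4 among them (edgeR adjusted p = 0.061 to 0.0999). Besides Fzd7, Bmpr1a and Wls, the first technical library alone lost Fgfbp1, Gata6, Etfb, Casp1 and Klf6. Males alone lost 20 named calls, Egf, Lrig1, Npm1 and Mki67 among them, and females alone 5, and a test against a fold of 2 lost 56. Genes with Paneth medians under 10 CPM, such as Fzd7 and Gfi1, rest on few counts in the Paneth samples, whose nuclear counts are the smaller part of each library.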
